A study of Homo sapiens with 6 samples.

Results

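Translation initiation and elongation factors were examined in C4-2B prostate cancer cells that had become resistant to enzalutamide, an antiandrogen that blocks the androgen receptor. Members were the genes whose symbol in the table is EIF followed by a factor number from 1 to 6 and at most a short subunit suffix, or EEF with 1 or 2 and such a suffix. This naming rule, which uses no measured value, found 62 of 58024 genes. Of these, 52 averaged 0.1 FPKM or more across the 6 libraries and were tested. The other 10 were EIF3CL, a near-identical copy of EIF3C, and 9 pseudogenes (EIF1P1 to EIF1P7, EIF5P1 and EIF5P2), all listed at 0 or below 0.6 FPKM in every library.

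RNA-Seq was available for 3 parental and 3 enzalutamide resistant libraries, each numbered 0, 1 and 2. C4-2B is a castration-resistant human line that goes back to LNCaP cells grown in castrated mice. Resistant cells were selected by passage in enzalutamide from 1 to 20 µM over a minimum of 6 months, were pooled survivors rather than a clone, and were then kept in 5 µM enzalutamide. The labels assign 1% DMSO to the parental cells. The study's methods set a lower ceiling for the vehicle, so the DMSO level is uncertain. The labels also name exposure to 10 µM enzalutamide before RNA extraction in a phrase that can be read as covering the parental cells too. Both groups were grown in RPMI-1640 with serum. Nothing states that libraries came from separate cultures, so the p values measure only the spread between these libraries, which may be technical. The values were taken as FPKM, which scales reads to transcript length and to library size, so levels of different genes are compared per length, while counts and depth are unknown. Values are given in the order of libraries 0, 1 and 2.

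Initiation factors bring the small ribosomal subunit, the initiator tRNA and an mRNA together. eIF2 carries the initiator tRNA and eIF2B recharges it, eIF3 holds the complex together, the eIF4 factors bind and unwind the capped end of the mRNA, and eIF1, eIF1A, eIF5 and eIF5B choose the start codon and join the large subunit. During elongation eEF1A delivers aminoacyl-tRNA, the eEF1B subunits reload eEF1A with GTP, and eEF2 moves the ribosome along the mRNA.

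Many mRNAs of the translation machinery begin with a 5′ terminal oligopyrimidine (TOP) run, a stretch of C and T through which growth signals control their translation. Start sites were available in RefSeq (GRCh38.p14) for 44 members, and 13 of these (29.5%) had at least 1 annotated start with C followed by at least 4 further C or T, against 5.14% of the 27305 genes in the same table. The first 20 transcribed bases are shown for the 10 TOP members that passed the test for a difference between resistant and parental cells, with the pyrimidine run in capitals. The 3 upregulated genes come first.
EEF1A1 (chr6:73521013-73521032, minus strand): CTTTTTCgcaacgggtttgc
EEF1B2 (chr2:206159895-206159914, plus strand): CCTTTTTCCTCTCTTCagcg
EIF4B (chr12:53006456-53006475, plus strand): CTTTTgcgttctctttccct
EEF2 (chr19:3985444-3985463, minus strand): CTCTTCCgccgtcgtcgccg
EIF2A (chr3:150546787-150546806, plus strand): CTCTTTCCgggacaacatgg
EIF2S3 (chrX:24054956-24054975, plus strand): CTCTTTTggcaacatggcgg
EIF3D (chr22:36529147-36529166, minus strand): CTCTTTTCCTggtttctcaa
EIF3K (chr19:38619188-38619207, plus strand): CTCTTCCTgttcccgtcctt
EIF3M (chr11:32583831-32583850, plus strand): CTTTTCCggtcggcgtggtc
EIF4A2 (chr3:186783577-186783596, plus strand): CTTTTCagtcgggcgctgag

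Among the 13 TOP members, 3 were higher, 7 were lower and 3 did not pass the test. Of the 31 members with a start site but no such run, 5 were higher, 9 were lower and 17 did not pass. TOP members thus stood on both sides of the comparison, as did genes at large. Of all genes tested, 22.1% were higher and 22.3% were lower. Of the coding genes that averaged 10 FPKM or more, 25.9% were higher and 32.2% were lower. EEF2 with its run of 7 pyrimidines was lower, and EEF1A1 with a run of the same length was higher. The values behind these calls are given with each group of factors. A pyrimidine run in these letters describes the annotated start only, since the starts used in these cells were not measured.

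Resistant and parental libraries were compared gene by gene with limma on log2(FPKM + 0.1) over 24468 genes, two-sided, with Benjamini-Hochberg adjustment at 0.05. Of the 52 tested members, 9 were higher in resistant cells (17.3%, against 22.1% of all genes tested) and 21 were lower (40.4%, against 22.3% of all genes tested). Most members were strongly expressed, and among the 8303 protein-coding genes that averaged 10 FPKM or more, 25.9% were higher and 32.2% were lower (58.1% in all). The share of higher members was thus below both backgrounds, and the share of lower members above both. The median log2 fold change of the 52 members was -0.26, beside -0.05 for all genes tested and -0.09 for the coding genes with at least 10 FPKM. With a fold change of at least 2 required as well, 1 member was higher (1.92%, against 15.0% of all genes) and 6 were lower (11.5%, against 13.6%), where 28.5% of all genes passed in either direction. Changes of 2-fold or more were therefore no more frequent among the members than among genes at large. Among the coding genes with at least 10 FPKM, 9.26% were higher and 11.3% were lower by this rule. Of the members, 11 had every resistant library above every parental library (21.2%, against 26.6% of all genes) and 25 had every resistant library below (48.1%, against 28.1%). Over all genes tested, 54.8% had groups without overlap. Among the coding genes with at least 10 FPKM, 30.4% had every resistant library above and 37.6% every resistant library below.

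**Figure D1:**
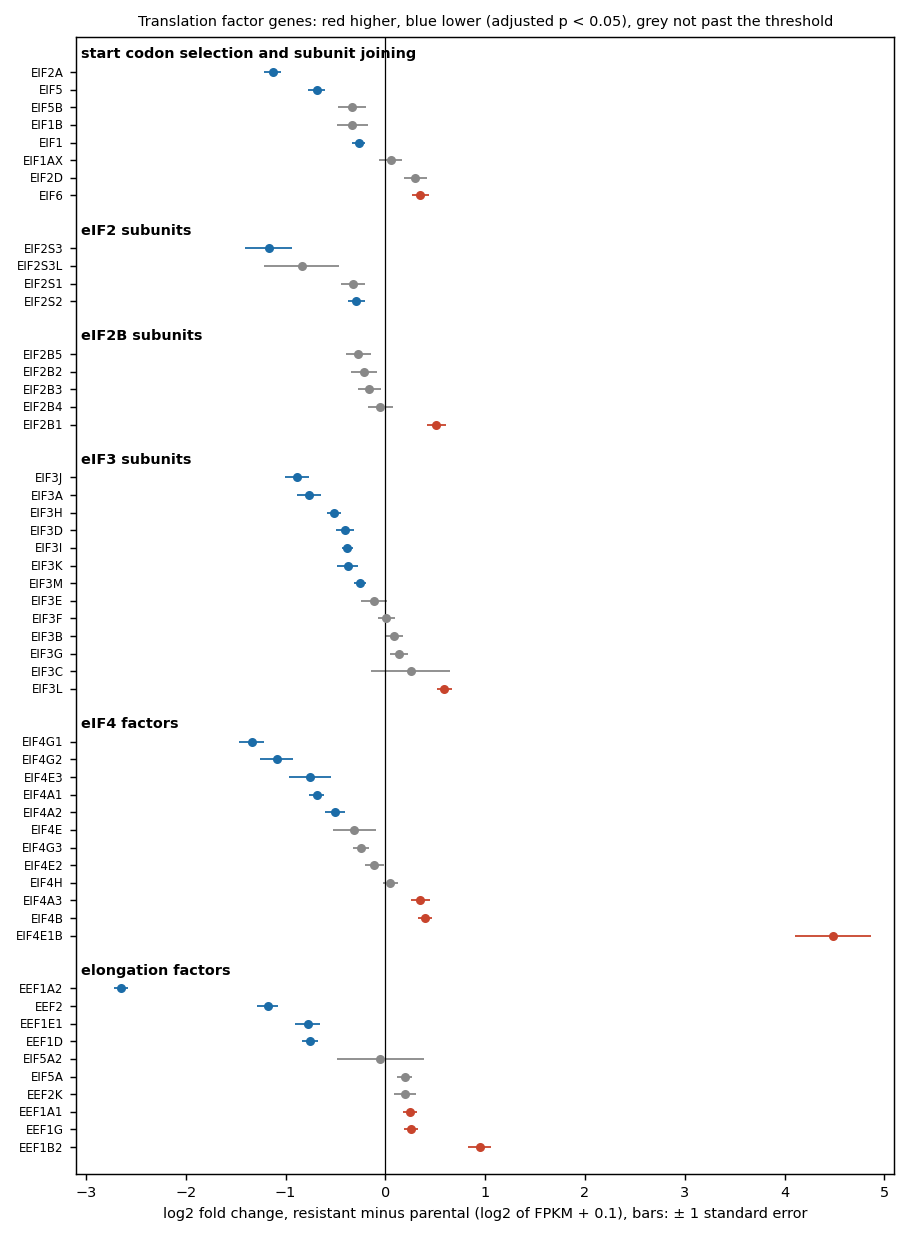
Log2 fold change (resistant minus parental, on the log2(FPKM + 0.1) scale) of the 52 tested members by role, with bars of 1 standard error. Red points are higher and blue points lower at an adjusted p below 0.05, and grey points did not pass. EIF4E1B lies farthest to the right at 4.48 and EEF1A2 farthest to the left at -2.65.

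Among the elongation factors, 3 of 10 genes (30%) were higher (EEF1B2, EEF1G and EEF1A1) and 4 (40%) were lower (EEF1A2, EEF2, EEF1E1 and EEF1D). The median log2 fold change was 0.07. Among the coding genes with at least 10 FPKM, 25.9% were higher and 32.2% were lower. The largest fall was in a paralogue of eEF1A. EEF1A2 encodes the form of eEF1A that normal tissue keeps to neurons and muscle, and EEF1A1 encodes the form found in nearly all other cells. EEF1A2 (ENSG00000101210.10, chr20:63488013-63499239, minus strand, GRCh38) stood at 587, 555 and 574 FPKM in parental cells and at 85.0, 91.8 and 96.6 FPKM in the resistant libraries. The lowest parental library was far above the highest resistant one. EEF1A2 was downregulated 6.28-fold, with a log2 fold change of -2.65 ± 0.07 (SE) and an adjusted p of 4.35e-06 by limma. EEF1A1 was higher in resistant cells by a smaller amount, from 305, 290.1 and 291 FPKM to 325, 374 and 357 FPKM. Its groups did not overlap either, and the difference was 0.25 ± 0.07 (SE) in log2 with an adjusted p of 0.0304 by limma. That call was lost without any 1 of the 3 parental libraries or of resistant libraries 1 and 2, where the limma adjusted p lay between 0.0599 and 0.0964.

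EEF1A2 made up 65.8%, 65.7% and 66.4% of the summed eEF1A FPKM in parental cells and 20.8%, 19.7% and 21.3% in resistant cells. The gene with the larger listed FPKM thus differed between them. The mean log2 ratio of EEF1A2 to EEF1A1 differed by -2.90 (resistant minus parental), and the groups separated fully. An exact two-sided permutation test gave p = 0.1, the smallest that 3 against 3 libraries allow, and 0.3 after adjustment over the 9 paralogue ratios compared. The sum of both genes was 893, 845 and 865 FPKM in parental libraries and 409.5, 466 and 454 FPKM in resistant libraries, so the share moved mainly through the loss of EEF1A2 FPKM. EEF1A1 is uncertain in level because 39 pseudogenes named after it carry near copies of its sequence. These pseudogenes together held 15.1 to 23.4 FPKM per library, and how reads that map to several of them were divided or dropped is not given in the sources used here. The shares, and which gene was the major form in parental cells, are therefore uncertain as well.

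EEF2, the translocase that moves the ribosome by one codon, was the most abundant protein-coding mRNA of the table in parental cells and ranked 18 in resistant cells. EEF2 (ENSG00000167658.15, chr19:3976056-3985463, minus strand) was at 4278, 3568 and 4496 FPKM in parental libraries and at 1732, 1777 and 1926 FPKM in resistant libraries. All resistant libraries were below all parental ones. The gene was downregulated 2.27-fold, with a log2 fold change of -1.18 ± 0.10 (SE) and a limma adjusted p of 0.000272. Measured against the summed FPKM of both eEF1A genes, EEF2 stood at 4.74 ± 0.49 (SD, n = 3) in parental cells and 4.10 ± 0.24 (SD, n = 3) in resistant cells. These ranges touched, with 4.22 in parental library 1 and 4.25 in resistant library 2. EEF2K, the kinase that inactivates eEF2, had 20.9 ± 2.31 FPKM (SD, n = 3) in parental cells and 23.9 ± 1.65 FPKM (SD, n = 3) in resistant cells, and did not pass the test.

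The 3 subunit genes of eEF1B, the exchange factor of eEF1A, went in different directions. EEF1B2 (ENSG00000114942.13, chr2:206159585-206162928, plus strand), a catalytic subunit, was at 100.5, 88.9 and 80.0 FPKM in parental libraries and at 159.8, 195 and 164 FPKM in resistant libraries. Every resistant library was above every parental one. The gene was upregulated 1.93-fold, with a log2 fold change of 0.95 ± 0.12 (SE) and a limma adjusted p of 0.00103. EEF1D, the other catalytic subunit, fell from a mean of 634 ± 43.8 FPKM (SD, n = 3) to 376 ± 22.5 FPKM (SD, n = 3), with a limma adjusted p of 0.000523. EEF1G, the structural subunit, rose from 384 ± 18.7 FPKM (SD, n = 3) to 459 ± 21.7 FPKM (SD, n = 3), with a limma adjusted p of 0.0213. The EEF1G call was lost without parental library 0 or 2 or resistant library 1 or 2 (limma adjusted p 0.0533 to 0.0668).

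The summed FPKM of the 3 eEF1B genes was 1107 ± 49.5 (SD, n = 3) in parental cells and 1008 ± 62.8 (SD, n = 3) in resistant cells, with overlapping libraries. EEF1D held 57.2% ± 2.35 (SD, n = 3) of the sum in parental cells and 37.3% ± 0.49 (SD, n = 3) in resistant cells. EEF1B2 held 8.10% ± 0.66 (SD, n = 3) and 17.1% ± 0.85 (SD, n = 3). EEF1G, at 34.7% in parental cells, was the largest of the 3 in resistant cells with 45.6%. No share overlapped between the groups.

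EEF1E1, a scaffold protein of the complex that holds several aminoacyl-tRNA synthetases, fell from 51.9 ± 2.76 FPKM (SD, n = 3) to 30.4 ± 4.64 FPKM (SD, n = 3), with a limma adjusted p of 0.00343. EIF5A, whose product eIF5A helps ribosomes through stretches such as polyproline, was at 244, 230.2 and 230.4 FPKM in parental libraries and at 267, 288 and 251 FPKM in resistant libraries. Its groups did not overlap, yet the limma adjusted p was 0.0705. Its paralogue EIF5A2 varied widely within each group, at 6.13, 2.27 and 5.15 FPKM in parental libraries and at 3.73, 2.91 and 5.93 FPKM in resistant libraries.

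**Figure D2:**
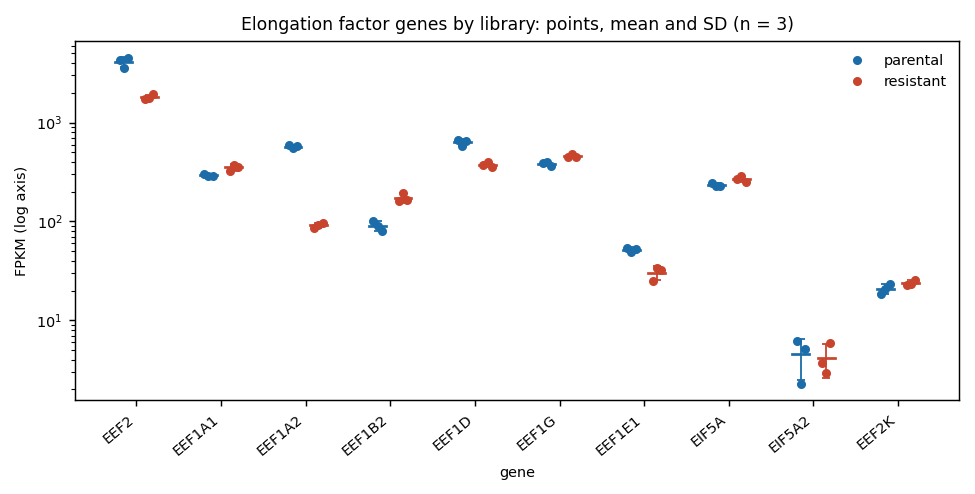
FPKM (log axis) of the 10 elongation factor genes in each of the 3 parental (blue) and 3 resistant (red) libraries, with the mean and SD of each group. EEF1A2 lies above EEF1A1 in every parental library and below it in every resistant library, and EEF2 is the highest gene in both groups.

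Of the 12 tested eIF4 genes, 3 (25%) were higher (EIF4E1B, EIF4B and EIF4A3) and 5 (41.7%) were lower (EIF4G1, EIF4G2, EIF4E3, EIF4A1 and EIF4A2). Their median log2 fold change was -0.28. The share of higher genes was near the 25.9% of coding genes with at least 10 FPKM, of which 32.2% were lower. EIF4G1 and EIF4G2, 2 of the 3 scaffold genes, had the lowest log2 fold changes of the eIF4 genes. EIF4G1 (ENSG00000114867.20, chr3:184314495-184335358, plus strand), the scaffold that links the cap-binding protein, the helicase and eIF3, was at 609.7, 460.1 and 638 FPKM in parental libraries and at 219, 220.5 and 228 FPKM in resistant libraries. The resistant libraries were nearly equal and all lay below the lowest parental library. EIF4G1 was downregulated 2.56-fold, with a log2 fold change of -1.34 ± 0.13 (SE) and a limma adjusted p of 0.000367.

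EIF4G2 (ENSG00000110321.15, chr11:10797050-10808940, minus strand) encodes a related scaffold that lacks the binding site for eIF4E and serves cap-independent initiation. It was at 1882, 1537 and 2096 FPKM in parental libraries and at 715, 1019 and 869 FPKM in resistant libraries. No resistant library reached the parental range, although both groups were spread. The fall was 2.12-fold, with a log2 fold change of -1.09 ± 0.17 (SE) and a limma adjusted p of 0.00245. Among protein-coding genes EIF4G2 moved from rank 17 to rank 68. The third scaffold gene, EIF4G3, was at 32.3, 35.7 and 31.8 FPKM in parental libraries and at 27.2, 27.9 and 29.0 FPKM in resistant libraries. The groups did not overlap, but the gene did not pass the test (log2 fold change -0.24, limma adjusted p = 0.0524).

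The ratio of EIF4G3 to EIF4G1 was 0.0530, 0.0776 and 0.0498 in parental libraries and 0.124, 0.127 and 0.127 in resistant libraries. The groups separated, and the log2 ratio was 1.10 higher in resistant libraries (exact permutation p = 0.1, adjusted 0.3). The ratio of EIF4G2 to EIF4G1 was 3.09 to 3.34 in parental libraries and 3.26 to 4.62 in resistant libraries, which overlapped, and the mean difference in log2 was 0.25 (exact permutation p = 0.3, adjusted 0.45).

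The RNA helicase eIF4A is encoded by EIF4A1 and its close paralogue EIF4A2, and EIF4A3 encodes a relative that belongs to the exon junction complex of spliced mRNA. EIF4A1 was at 1022, 950.2 and 1050 FPKM in parental libraries and at 589, 670.1 and 618 FPKM in resistant libraries. Its log2 fold change was -0.69 ± 0.07 (SE) with a limma adjusted p of 0.000606, and the groups did not overlap. EIF4A2 was downregulated as well, from 213, 228 and 254 FPKM to 163, 149 and 178 FPKM, with no overlap and a limma adjusted p of 0.00676. EIF4A3 (ENSG00000141543.9, chr17:80134369-80147151, minus strand) was at 65.4, 58.3 and 64.6 FPKM in parental libraries and at 73.0, 87.3 and 80.4 FPKM in resistant libraries. All resistant libraries were above all parental ones, for a 1.28-fold increase (log2 fold change 0.35 ± 0.09 SE, limma adjusted p = 0.0218). This call was lost without parental library 1 or resistant library 1 or 2 (limma adjusted p 0.0574 to 0.0673).

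Relative to EIF4A1, EIF4A3 stood at 0.0640, 0.0614 and 0.0616 in parental libraries and at 0.124, 0.130 and 0.130 in resistant libraries. The groups separated by 1.04 in log2 (exact permutation p = 0.1, adjusted 0.3). EIF4A2 relative to EIF4A1 ranged from 0.208 to 0.242 in parental libraries and from 0.222 to 0.288 in resistant libraries, so the 2 close paralogues fell by amounts that could not be separated (difference 0.18 in log2, exact permutation p = 0.3, adjusted 0.45). A readthrough gene across EIF4A1, SENP3-EIF4A1, was listed at 0 to 1.28 FPKM, far below EIF4A1 itself.

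EIF4B (ENSG00000063046.17, chr12:53006282-53042215, plus strand), which stimulates the helicase, was at 107, 100.5 and 111 FPKM in parental libraries and at 132, 147 and 140.2 FPKM in resistant libraries. The groups did not overlap, and the increase was 1.32-fold (log2 fold change 0.40 ± 0.07 SE, limma adjusted p = 0.00531). EIF4H, a related helper of the helicase, had 97.0 ± 3.38 FPKM (SD, n = 3) and 100.5 ± 6.39 FPKM (SD, n = 3) and did not pass the test.

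The genes of the cap-binding proteins went in different directions. EIF4E was at 31.7, 32.1 and 29.8 FPKM in parental libraries and at 34.0, 18.3 and 25.5 FPKM in resistant libraries. Resistant library 0 was above all parental libraries and resistant library 1 was far below them, and the gene did not pass the test (limma adjusted p = 0.293). EIF4E2, a cap-binding relative known mainly for repressing translation, was at 47.2, 48.0 and 41.3 FPKM in parental libraries and at 41.0, 45.3 and 39.98 FPKM in resistant libraries, which overlapped, and it did not pass either. EIF4E3 was low in both groups and fell from 2.68, 3.62 and 3.32 FPKM to 2.00, 1.65 and 1.89 FPKM, with no overlap and a limma adjusted p of 0.0260. Leaving out parental library 1 or 2 or any 1 of the resistant libraries took the EIF4E3 call away (limma adjusted p 0.0536 to 0.0748). The ratio of EIF4E2 to EIF4E differed by 0.20 in log2 and that of EIF4E3 to EIF4E by -0.45, with overlapping groups and exact permutation p values of 0.7 and 0.2 (adjusted 0.8 and 0.45).

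EIF4E1B, a cap-binding relative known from oocytes, was the member with the largest increase. EIF4E1B (ENSG00000175766.11, chr5:176630618-176646644, plus strand) was listed at 0.0191, 0 and 0 FPKM in parental libraries and at 2.71, 2.70 and 1.59 FPKM in resistant libraries. It was thus near 0 in every parental library and above 1 FPKM in every resistant one. The log2 fold change was 4.48 ± 0.38 (SE) with a limma adjusted p of 0.000232. Its size depended on the constant added before taking logarithms, from 1.71 with 1 FPKM to 7.32 with 0.01 FPKM. In resistant cells EIF4E was still at a mean of 25.9 FPKM, against 2.33 FPKM for EIF4E1B.

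**Figure D3:**
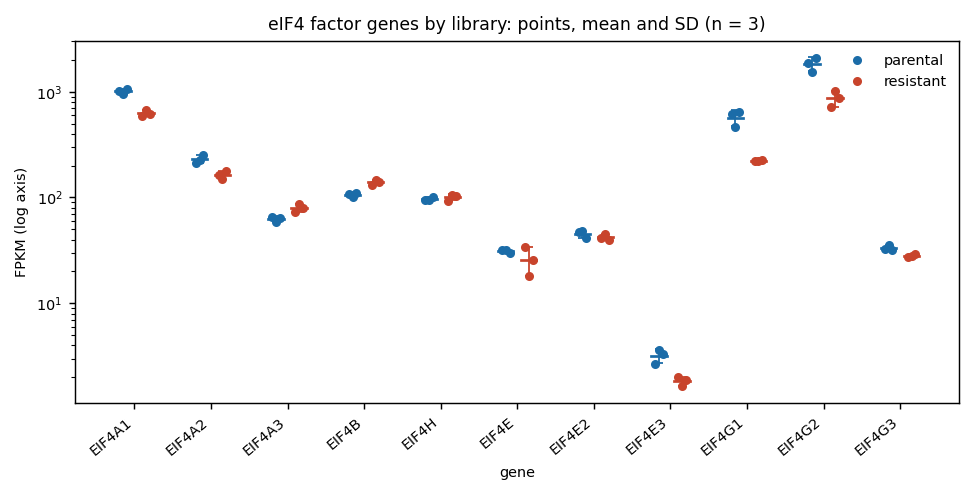
FPKM (log axis) of 11 eIF4 genes in each library, with the mean and SD of the 3 parental (blue) and 3 resistant (red) libraries. EIF4G1, EIF4G2 and EIF4A1 lie lower in every resistant library, the 3 EIF4E points of the resistant cells spread from 18.3 to 34.0 FPKM around the parental values, and EIF4E1B is left out because 2 of its parental values are 0, which a log axis cannot show.

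The E-box CACGTG, the letters bound by MYC and related factors, was searched in the 250 bases before and the 50 bases after each RefSeq start. It reads the same on both strands. It occurred in 11 of the 44 members with a start site (25%), against 8.77% of the genes in the table. Of these 11 members 2 were higher, 2 were lower and 7 did not pass the test. Over all genes tested, 22.1% were higher and 22.3% were lower. EIF4G1, which fell, and EIF4E and EIF5A2, which did not pass, each carried 2 copies. The EIF4G1 copies belonged to the annotated start at chr3:184314606, and its other annotated starts had none. The 250 bases before that EIF4G1 start and before the EIF4E start are given 5′ to 3′ with CACGTG in capitals.
EIF4G1 (chr3:184314356-184314605, plus strand): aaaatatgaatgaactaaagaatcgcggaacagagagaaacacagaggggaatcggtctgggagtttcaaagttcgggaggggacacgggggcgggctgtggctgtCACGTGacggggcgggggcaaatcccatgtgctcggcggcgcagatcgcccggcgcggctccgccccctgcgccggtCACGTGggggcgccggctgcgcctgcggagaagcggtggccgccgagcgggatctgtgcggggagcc
EIF4E (chr4:98929134-98929383, minus strand): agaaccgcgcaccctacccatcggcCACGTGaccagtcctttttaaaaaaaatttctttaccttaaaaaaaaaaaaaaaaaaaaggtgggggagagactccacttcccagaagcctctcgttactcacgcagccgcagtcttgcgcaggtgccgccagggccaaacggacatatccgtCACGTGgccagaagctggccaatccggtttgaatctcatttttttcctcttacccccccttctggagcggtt

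The copies began 144 and 67 bases before this EIF4G1 start and 225 and 72 bases before the EIF4E start. A match of these letters is not a measured binding site, and no binding data were analysed here.

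Of the 13 tested subunit genes of eIF3, 1 (7.69%) was higher (EIF3L) and 7 (53.8%) were lower (EIF3J, EIF3A, EIF3H, EIF3D, EIF3I, EIF3K and EIF3M). The other 5 did not pass, and the median log2 fold change was -0.25. Among the coding genes with at least 10 FPKM, 25.9% were higher and 32.2% were lower. EIF3L (ENSG00000100129.17, chr22:37848868-37889407, plus strand), a peripheral subunit, was at 332, 327 and 292 FPKM in parental libraries and at 459, 502 and 469 FPKM in resistant libraries. All resistant libraries were above all parental ones. The increase was 1.51-fold, with a log2 fold change of 0.59 ± 0.07 (SE) and a limma adjusted p of 0.00114. EIF3J, a loosely bound subunit that acts at the decoding site, fell from 63.8 ± 7.68 FPKM (SD, n = 3) to 34.4 ± 2.92 FPKM (SD, n = 3), with a limma adjusted p of 0.0014. EIF3A, the largest core subunit, fell from 100.3 ± 14.0 FPKM (SD, n = 3) to 58.8 ± 4.31 FPKM (SD, n = 3), with a limma adjusted p of 0.00282.

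The 5 further subunits that fell did so by 0.25 (EIF3M) to 0.52 (EIF3H) in log2. Their groups did not overlap. The EIF3K call was lost without parental library 0 or 2 or resistant library 0 or 2 (limma adjusted p 0.101 to 0.109), and the EIF3M call without parental library 0 or resistant library 2 (limma adjusted p 0.0547 to 0.0553). EIF3B, the core subunit that carries the scaffold for EIF3I and EIF3G, had 191 ± 5.73 FPKM (SD, n = 3) and 204 ± 22.2 FPKM (SD, n = 3) and did not pass the test. EIF3E, EIF3F and EIF3G did not pass either. EIF3C was below 1.1 FPKM in every library, with EIF3CL listed at 0. Even together the 2 genes held only 0.392 to 1.02 FPKM per library. Both are uncertain because they are near-identical and reads they share could be dropped.

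The median over the 12 subunits other than EIF3C was 190.4, 173 and 182 FPKM in parental libraries and 177, 179 and 169.95 FPKM in resistant libraries, which overlapped. The summed FPKM of all eIF3 genes was 2259.8, 2142 and 2180 in parental libraries and 1977, 2139.9 and 2033 in resistant libraries, so every resistant sum was below every parental one, if narrowly. Against the median of its own library, EIF3L was 0.64 higher in log2 in resistant cells, EIF3J was 0.84 lower and EIF3A was 0.71 lower, with no overlap between groups for any of them. EIF3B and EIF3E overlapped between the groups on this scale.

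**Figure D4:**
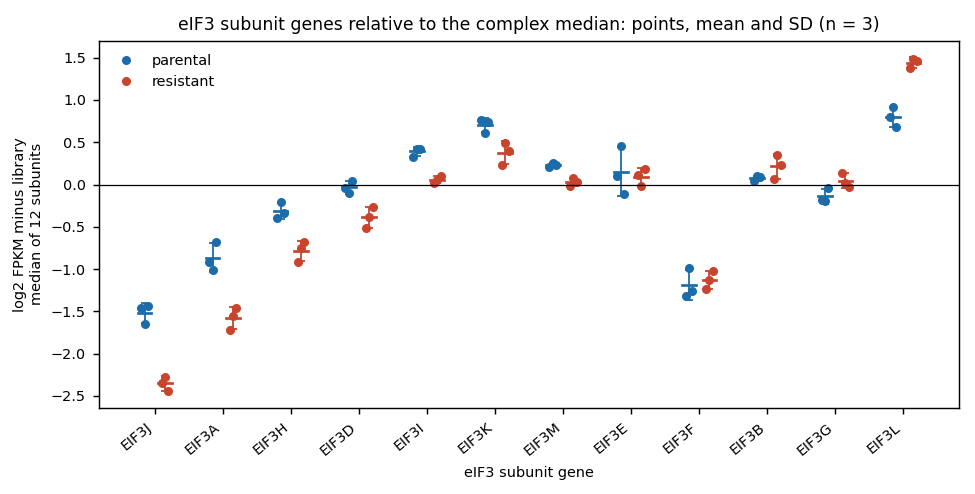
Log2 FPKM of 12 eIF3 subunit genes minus the median of the 12 in the same library, for 3 parental (blue) and 3 resistant (red) libraries, with the mean and SD of each group. EIF3L moves up by 0.64, EIF3J and EIF3A move down by 0.84 and 0.71, and the points of EIF3B, EIF3E and EIF3F overlap.

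Of the 4 tested genes of eIF2, none was higher by limma and 2 (50%) were lower, and all 4 log2 fold changes were negative. Among the coding genes with at least 10 FPKM, 25.9% were higher and 32.2% were lower. EIF2S3 (ENSG00000130741.10, chrX:24054946-24078810, plus strand), the subunit that holds GTP and the initiator tRNA, was at 153, 103 and 131 FPKM in parental libraries and at 42, 58.0 and 74.5 FPKM in resistant libraries. Both groups were spread, but the highest resistant library was below the lowest parental library. EIF2S3 fell 2.22-fold, with a log2 fold change of -1.17 ± 0.24 (SE) and a limma adjusted p of 0.00793. EIF2S2 fell from 35.9 ± 1.87 FPKM (SD, n = 3) to 29.3 ± 2.00 FPKM (SD, n = 3), with a limma adjusted p of 0.0367. That call was lost without parental library 0 or 2 or any 1 of the resistant libraries (limma adjusted p 0.0510 to 0.0835). EIF2S1, the subunit phosphorylated in the integrated stress response, overlapped between the groups with 131 ± 14.1 FPKM (SD, n = 3) and 105 ± 14.0 FPKM (SD, n = 3), and its limma adjusted p was 0.0751. EIF2S3L, a retrocopy of EIF2S3 with the same first 20 bases, was below 0.5 FPKM in every library and did not pass.

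Of the 5 subunits of eIF2B, the exchange factor of eIF2, only EIF2B1 (20%) passed the test. Among the coding genes with at least 10 FPKM, 58.1% passed in either direction. EIF2B1 (ENSG00000111361.12, chr12:123620406-123633766, minus strand), a regulatory subunit that senses phosphorylated eIF2, was at 38.2, 42.5 and 39.9 FPKM in parental libraries and at 51.0, 61.5 and 59.6 FPKM in resistant libraries. Every resistant library was above every parental one, for a 1.43-fold increase (log2 fold change 0.51 ± 0.10 SE, limma adjusted p = 0.00627). The other 4 subunits overlapped between the groups and had log2 fold changes from -0.27 (EIF2B5, the catalytic subunit) to -0.05 (EIF2B4), and their limma p before adjustment ran from 0.0755 to 0.703.

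Among the 8 genes for start codon selection and subunit joining, EIF6 was higher (12.5%) and EIF2A, EIF5 and EIF1 were lower (37.5%). Of the coding genes with at least 10 FPKM, 25.9% were higher and 32.2% were lower. EIF2A (ENSG00000144895.11, chr3:150546678-150586016, plus strand) encodes a single-chain protein that can bring initiator tRNA to the ribosome without eIF2. It was at 143, 155 and 154 FPKM in parental libraries and at 68.8, 63.1 and 75.0 FPKM in resistant libraries. The groups were tight and far apart. EIF2A was downregulated 2.19-fold, with a log2 fold change of -1.13 ± 0.08 (SE) and a limma adjusted p of 0.00014.

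EIF5, which triggers GTP hydrolysis on eIF2 at the start codon, fell from 229 ± 6.42 FPKM (SD, n = 3) to 143 ± 12.9 FPKM (SD, n = 3), with a limma adjusted p of 0.000889. EIF1, which guards the choice of the start codon, fell from 224.8, 210.2 and 226 FPKM to 175, 183 and 192 FPKM, with no overlap and with a limma adjusted p of 0.0168 that became 0.0528 without parental library 0. EIF1B, a close paralogue of EIF1, was at 13.1, 14.6 and 13.1 FPKM in parental libraries and at 12.02, 11.9 and 8.77 FPKM in resistant libraries. EIF1B relative to EIF1 overlapped between the groups, with a difference of -0.06 in log2 (exact permutation p = 0.8, adjusted 0.8). For EIF5A2 relative to EIF5A the difference was -0.24, again with overlap (exact permutation p = 0.8, adjusted 0.8). EIF6, which keeps the large subunit from joining too early, rose from 104 ± 2.15 FPKM (SD, n = 3) to 133 ± 13.3 FPKM (SD, n = 3), with a limma adjusted p of 0.0169 that became 0.0578 without parental library 2. EIF5B and EIF1B lay lower in every resistant library than in any parental one and EIF2D lay higher, but none of the 3 passed the test.

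Summed over all 62 members, FPKM was 14355, 12706 and 14675 in parental libraries and 8457, 9336 and 9040 in resistant libraries, a 1.56-fold lower mean with no overlap. As a share of the FPKM of all protein-coding genes, members made up 2.35%, 2.2% and 2.37% in parental and 1.51%, 1.55% and 1.53% in resistant libraries. A few abundant members weigh heavily in this sum. EEF2 alone was at a mean of 4114 FPKM in parental cells and 1812 FPKM in resistant cells. EIF4G2 was at means of 1838 and 868 FPKM, EIF4A1 at 1007 and 626 FPKM, and EEF1A2 at 572 and 91.1 FPKM. Of the 26 members that averaged 100 FPKM or more, 6 were higher and 15 were lower, and of the 24 members between 1 and 100 FPKM, 3 were higher and 6 were lower. Shares of all genes at these levels were not computed, so these counts describe the members only. Of the coding genes at 10 FPKM or more, 58.1% passed in either direction.

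For the structural parts of the ribosome, 30 of 78 tested cytosolic ribosomal protein genes were higher (38.5%) and 19 were lower (24.4%). Their median log2 fold change was 0.10. Among the coding genes with at least 10 FPKM, 25.9% were higher and 32.2% were lower. The summed FPKM of the ribosomal protein genes was 72943, 65261 and 67393 in parental libraries and 73283, 80885 and 76215 in resistant libraries. Every resistant sum was thus above every parental one, but narrowly so for parental library 0 and resistant library 0. RPS19, RPS27A and RPS3A, the 3 with the smallest adjusted p, were all higher, with log2 fold changes of 1.44, 1.57 and 1.99 (limma adjusted p 3.16e-05, 4.94e-05 and 5.07e-05). Their levels were far apart, with means of 997 and 2707 FPKM (parental and resistant) for RPS19, 67.6 and 201 FPKM for RPS27A, and 8.92 and 35.6 FPKM for RPS3A. For every 100 FPKM of ribosomal protein genes, libraries held 19.7, 19.5 and 21.8 FPKM of factor genes in parental cells and 11.5, 11.5 and 11.9 FPKM in resistant cells. The groups did not overlap on this scale, to which both the lower factor sum and the higher ribosomal protein sum contributed. Many ribosomal protein genes have processed pseudogenes, so single values among them depend on how shared reads were assigned.

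**Figure D5:**
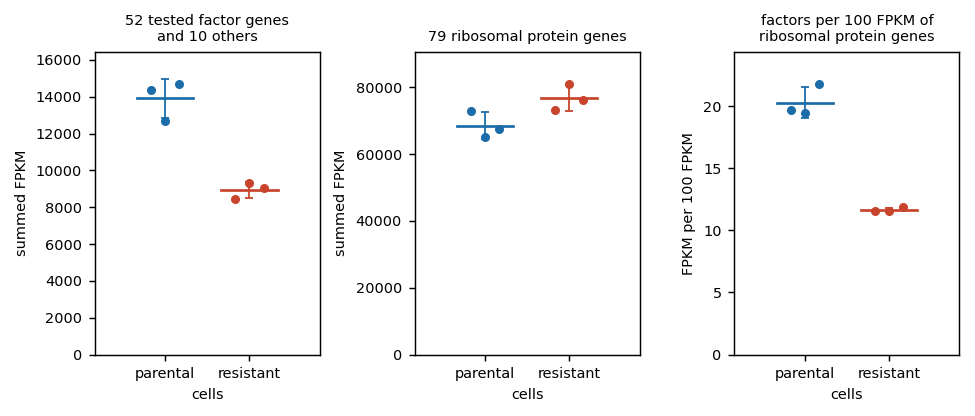
Summed FPKM of the 62 factor genes, summed FPKM of the 79 ribosomal protein genes, and factor FPKM per 100 FPKM of ribosomal protein genes, for each of 3 parental (blue) and 3 resistant (red) libraries with the mean and SD. Factor genes sum to 12706 or more in every parental library and to 9336 or less in every resistant library, while the ribosomal protein sums are 72943 or less in parental and 73283 or more in resistant libraries.

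Other genes of the translation pathway were counted in the same test, where 25.9% of the coding genes at 10 FPKM or more were higher and 32.2% were lower. Of 34 initiation regulators, 6 were higher (17.6%) and 12 were lower (35.3%), with a median of -0.29 in log2, so the share of lower genes was near that background. MKNK2, a kinase of eIF4E, fell by 1.51 in log2 (limma adjusted p = 2.83e-05) and PABPC1, the poly(A)-binding protein that contacts eIF4G, fell by 1.30 (limma adjusted p = 3.07e-05). PPP1R15A, the phosphatase subunit that reverses eIF2 phosphorylation in stress, rose by 2.27 (limma adjusted p = 5.90e-05) from a mean of 2.31 to 11.5 FPKM.

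Of 23 elongation and termination partners, 2 were higher (8.7%) and 9 were lower (39.1%), with a median of -0.04. Here the release factor genes GSPT1 and GSPT2 fell by 1.00 and 2.10 (limma adjusted p 0.000215 and 0.00269), and the histidyl-tRNA synthetase gene HARS fell by 0.74 (limma adjusted p = 0.00188). HARS and VARS, both lower, are also on the synthetase list below, so these lists are not independent. A list of 22 genes held the cytosolic aminoacyl-tRNA synthetases, which charge the tRNA that eEF1A delivers, and the scaffold genes AIMP1 and AIMP2. Of these 22 genes, 1 was higher (4.55%) and 14 were lower (63.6%), with a median of -0.47. AIMP1 and AIMP2 did not pass the test. FARSA, TARS and AARS led with log2 fold changes of -0.91, -0.90 and -0.70 (limma adjusted p 0.000113, 0.000171 and 0.000421). Of 12 mitochondrial translation factors, 3 were higher (25%) and 5 were lower (41.7%), with a median of -0.19. MTIF3, GFM1 and MTRF1 fell by 1.84, 0.69 and 1.18 (limma adjusted p 2.33e-05, 0.00838 and 0.00994).

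Members were also placed on the genome. Chromosome 3 held 7 tested members, all with negative log2 fold changes, of which none was higher by limma and 4 were lower (EIF4G1, EIF2A, EIF4E3 and EIF4A2), with a median of -0.50 in log2, and the 1358 tested genes of this chromosome had a median of -0.23. On chromosome 12, EIF2B1 and EIF4B were higher, EIF2S3L was at -0.84 without passing, and the 1368 tested genes had a median of 0.34. Members and all tested genes had medians of the same sign on 12 of the 19 chromosomes with a tested member and of opposite sign on 7. On chromosome 16, for example, the members EEF2K and EIF3C had a median of 0.22 and the tested genes one of -0.32. The part that chromosome copy number had in these values was not tested. Over the 52 members, log2 fold change had a Spearman rho of -0.17 with exonic length and 0.21 with GC content, a description across genes from the same 6 libraries.

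The libraries of the same cells correlated at 0.911 to 0.929 and libraries of different cells at 0.782 to 0.802 across genes on the log2 scale, where genes are not independent replicates. Of 9 prostate luminal markers, 2 were higher and 6 were lower, and their summed FPKM was 4146 to 4910 in parental and 1171 to 1251 in resistant libraries. Of 5 tested neuroendocrine markers 4 were higher, with a list sum of 7.07 to 11.3 FPKM in parental and 189 to 212 FPKM in resistant libraries. Summed basal, leukocyte and endothelial markers stayed below 1.9 FPKM in every library, and fibroblast markers at 8.04 to 15.0 FPKM. The RMRP RNA took 18.4 to 21.5% of the FPKM in parental and 11.4 to 12.6% in resistant libraries. The part of these differences in the members' values was not tested, and in such bulk samples fewer cells of a type and less RNA per cell cannot be told apart.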

How the data were processed

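The series consists of RNA-Seq of 3 parental and 3 enzalutamide resistant C4-2B libraries, grouped by their phenotype label. The deposited table gives 1 value per gene and library without a unit in its header, and the values were taken as FPKM because the authors name Cufflinks and the values are fractional. By the study's methods, the authors used TrimGalore 0.4.3 on 50 bp single-end reads, STAR 2.5.3 for alignment to GRCh38 with GENCODE 25, and Cufflinks 2.2.1 for differential expression. The submitters' processing notes name Trimmomatic 0.27, FastQC 0.10.1 and the mouse build mm10, but 99.96% of the matched gene identifiers lay at their GRCh38 position. The labels name both an unstranded and a stranded library kit, so overlapping antisense reads may not be separated. FPKM depends on the other RNA in a library, and no read counts, depth or counting error could be derived.

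The 24468 genes that averaged 0.1 FPKM or more were compared on log2(FPKM + 0.1) with limma 3.58.1 in R 4.3.3 (moderated test with a variance trend, two-sided, Benjamini-Hochberg over all genes tested, threshold 0.05), without a replicate block, after the fit had been tested on simulated data. Paralogue ratios were compared with an exact permutation test in scipy 1.17.1. Other steps used Python 3.11.15 with pandas 2.3.3, numpy 2.4.6 and matplotlib 3.10.9. Of the symbols, 28 had been turned into dates and were restored from their identifiers. Gene positions and exonic lengths came from GENCODE 44 on GRCh38, start sites and sequences from RefSeq (GRCh38.p14).

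Members, lists and tests were chosen with earlier results of these data known. Any member could be named. Full values are given for paralogue pairs and, among called members with 1 FPKM or more in a group mean and no overlap, for the 6 that rose most and the 6 that fell most. From every other pathway list, the 3 genes of lowest adjusted p are named. AIMP1, AIMP2 and VARS are named only for their place on the lists. Alternatives changed the scaling, pseudocount, low-value filter, variance model or threshold, added a replicate block, or dropped a library.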

Additional observations from a re-analysis of the deposited data

How the results depend on the processing

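Of the 30 members that passed the test, 20 kept their call under every alternative fit at the same threshold, and 21 kept it whichever library was dropped. The 9 others are named with their values in the report, and at that threshold EIF3D lost its call only without the variance trend. The count of higher members fell from 9 to 5 without the variance trend (EIF4A3, EIF6, EEF1A1 and EEF1G lost their call) and to 5 at an adjusted p below 0.01. Of the lower members, EIF2S2, EIF3D, EIF3K, EIF3M and EIF1 lost their call without the variance trend, while EIF2S3L gained one. At an adjusted p below 0.01, EIF2S2, EIF3D, EIF3K, EIF3M, EIF1 and EIF4E3 were no longer called lower. With a 2-fold minimum 1 was higher and 6 were lower. The members' median moved from -0.26 to -0.15 with quantile normalization. With 1 library left out at a time, 6 to 9 members were higher, 17 to 20 were lower and the median ran from -0.30 to -0.22. The cause of these shifts was not tested.

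Same-numbered libraries did not deviate together (correlations of 0.008, 0.017 and -0.003). Whether the numbers stand for a pairing is not stated, and these correlations cannot decide it. With a replicate block 6 members were higher and 16 were lower, and 8 calls were lost.

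No called member changed direction. Sign changes were seen in members and ratios that had not passed. EIF2B4 was at 0.0196 with quantile normalization and 0.0033 with sum scaling without short non-coding RNA genes, EIF5A2 at 0.0021 with that same sum scaling, and EIF3F at -0.0021 with ribosomal protein centring. With a library dropped, log2 fold changes ran from -0.1468 to 0.0727 for EIF2B4, -0.0415 to 0.4771 for EIF3C, -0.2402 to 0.0101 for EIF3E, -0.0274 to 0.072 for EIF3F, -0.4747 to 0.2226 for EIF5A2 and -0.0049 to 0.093 for EIF1AX. Log2 ratio differences ran from -0.0805 to 0.4353 for EIF4E2/EIF4E, -0.652 to 0.0321 for EIF5A2/EIF5A and -0.1741 to 0.1162 for EIF1B/EIF1. Without read counts, low members such as EIF3C, EIF4E1B and EIF5A2 have unknown counting error.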
